A study of Caenorhabditis elegans with 10 samples.

Results

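The 10 RNA-seq libraries of a *C. elegans* study were compared by replicate number: the 5 libraries numbered replicate 1 against the 5 numbered replicate 2, each pair taken within a strain. All 10 libraries of the series are members, 1 of each number in each of 5 strains. The study set out to find genes that respond when the methionine/S-adenosylmethionine (Met/SAM) cycle is impaired in animals given ample vitamin B12, so the strains were its comparison and the replicates its measure of error. Here the difference between the replicates is itself the subject.

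Every strain carried the integrated reporter wwIs24[Pacdh-1::GFP;unc-119(+)], in which the *acdh-1* promoter drives GFP, together with the deletion *nhr-10(tm4695)*, which removes part of a nuclear hormone receptor gene. The parent (*Pacdh-1::GFP;∆nhr-10*) had no further mutation. The 4 mutants added *metr-1(ww52)*, *mthf-1(ww50)*, *mtrr-1(ww56)* or *sams-1(ww51)*, each a single allele from a chemical mutagenesis screen, so a strain is also a single line. All animals were arrested as L1 larvae for 18 h, then fed *E. coli* OP50 on plates with 20 nM vitamin B12, after maintenance at 0.64 nM. The labels give at least 200 whole animals for a library, and the methods a larger number. The labels give the stage as L4 for every library, whereas the methods describe picked animals at the border of late L4 and young adult. Neither source gives a stage, a culture date or a sequencing date for a single library, and neither says that libraries of equal number were handled together. The replicates are called biological replicates, without a statement of how their cultures were separated.

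The last larval stage ends with a molt, during which the hypodermis makes a new cuticle from collagens, zona pellucida proteins and lipocalins, and sheds the old one with proteases. In the same hours the hermaphrodite germline stops making sperm and begins to make oocytes. Yolk proteins, or vitellogenins, are then produced in the adult intestine and taken up by oocytes, and the eggshell is assembled from components that the oocyte already holds. Furrow collagens are made early in each cuticle cycle, and certain other collagens, such as COL-7 and COL-19, belong to the adult cuticle.

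Values are TPM, a measure of abundance in which the read share of a gene is corrected for its length and scaled to the same total in every library. A library had 13752 to 14563 genes at 1 TPM or above, and its top 100 genes held 31.8% to 35.98% of the total. TPM keeps no sequencing depth, so no counting error can be given, and a gene listed at 0 may be a failed estimate. The parent libraries had 0.05 and 0.18 TPM of *acdh-1*, the gene whose promoter drives the reporter, and every mutant library had 20.9 TPM or more. *nhr-10* was still listed, at 3.13 to 6.19 TPM, so its deletion could not be read from the gene's total. In whole animals, fewer cells of a type and less RNA per cell cannot be told apart.

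Differences below are replicate 1 minus replicate 2 on the log2(TPM + 1) scale, where the change of a low gene comes out too small. They were fitted with limma with a mean for each strain, for the 14418 of 46903 genes whose mean reached 1 TPM. A gene was called at a Benjamini-Hochberg adjusted p under 0.01 and a fold over 1.5. An exact two-sided sign-flip test of a single gene over 5 pairs cannot go below p = 0.0625, so every call rests on limma's pooling of the spread over genes.

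Of the gene lists examined, the eggshell and oocyte lists held the most calls, with 7 of 13 and 10 of 22 genes lower in replicate 1. All 6 yolk genes were lower and all 6 furrow collagens higher in replicate 1 in all 5 strains, but none of either list was called. Of 25 molting genes 19 were higher in all 5 strains, again with 0 called. The most extreme fitted difference was that of *vit-5*, a yolk protein gene, at -5.08, and the median over all genes was -0.04. Limma called 20 genes higher in replicate 1, 0.139% of genes tested, and 125 lower, 0.867%. All 145 called genes differed in the same direction in all 5 strains, and 18 of the 125 were listed at 0 in at least 1 library. The fitted difference is the mean of the same 5 differences, so a call leaves little room for a strain of opposite direction. At an adjusted p under 0.05 the counts were 254 higher and 459 lower.

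Counted with no test, 1647 genes were higher in replicate 1 in all 5 strains, 11.4% of those tested, and 2681 were lower in all 5, 18.6%. The balance of these counts depended on scaling, at 2142 higher and 2091 lower after median-ratio scaling and 2423 higher and 1570 lower after quantile normalization. With a fold over 1.5 in every strain, 74 genes were higher and 256 lower. The replicate number took 58.8% of the within-strain sum of squares over all genes, where its 1 of 5 degrees of freedom would be 20% on average. For the median gene it took 39.9%, for which that average is not the reference. On the first principal component, which held 52.8% of the variance, the replicate 1 library lay above its replicate 2 partner in every strain. The component ran from -63.1 in parent replicate 2 to 74.2 in *mtrr-1(ww56)* replicate 1.

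The number of calls depended strongly on which strains and genes entered the fit. Leaving out the parent gave 0 calls higher and 10 lower, leaving out *mthf-1(ww50)* or *metr-1(ww52)* gave 0 in both directions, leaving out *mtrr-1(ww56)* gave 0 and 11, and leaving out *sams-1(ww51)* gave 37 and 60. With no strain term in the model there were 0 calls, and with no filter on low genes 0 higher and 1 lower.

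**Figure D1:**
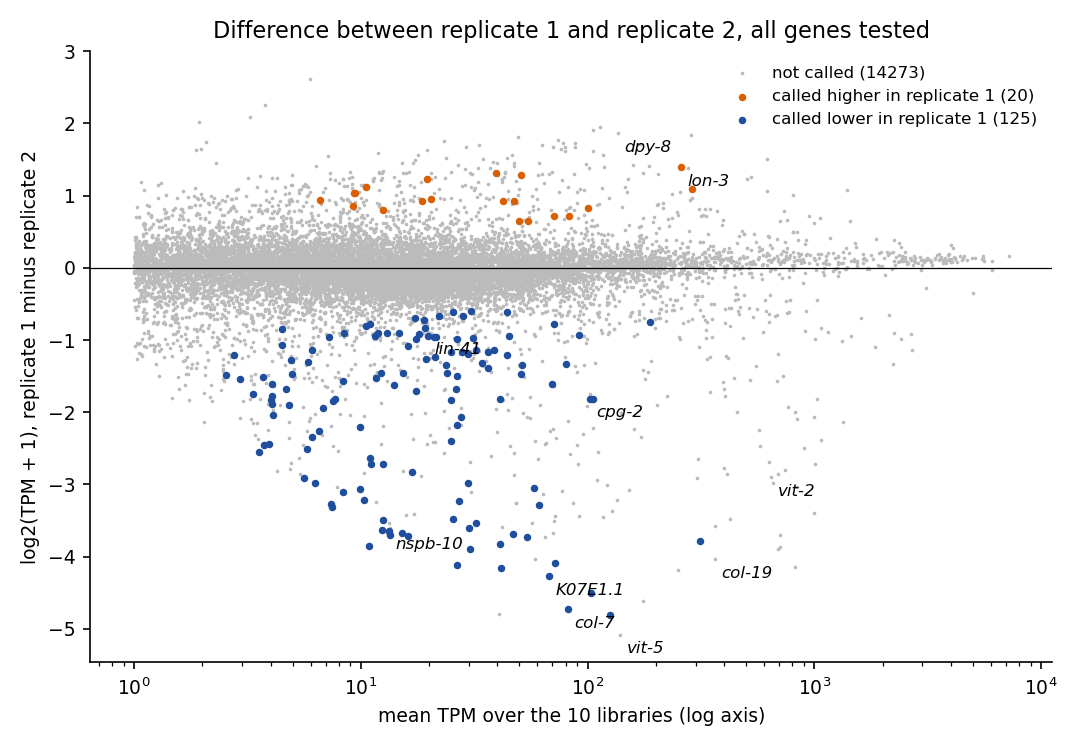
Difference between replicates on the log2(TPM + 1) scale (vertical) against mean TPM over the 10 libraries (horizontal, log axis) for the 14418 genes tested. The 20 genes called higher and the 125 called lower in replicate 1 are coloured, and the lowest point is *vit-5* at -5.08.

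Among called genes with a mean of 10 TPM or more, the 3 with the largest differences were cuticle collagens. *col-146* (WBGene00000719, chromosome V, 9629943 to 9631012, plus strand) had the largest called difference, -4.81 (SE 0.38, adjusted p = 0.00608). In replicate 1 it was at 30.5 TPM in the parent, 9.10 in *metr-1(ww52)*, 10.47 in *mthf-1(ww50)*, 2.71 in *mtrr-1(ww56)* and 0.64 in *sams-1(ww51)*. In replicate 2, in the same order, it was at 417, 184, 233, 290.5 and 71.0 TPM. The groups did not overlap, and the parent was the highest and *sams-1(ww51)* the lowest library of each number. The share of all genes tested whose groups do not overlap was not counted. Overlap is therefore only a description, here and for the genes below.

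*col-7* and *col-62*, both collagens of the adult cuticle, lie next to each other on chromosome I (7401132 to 7402761 and 7403291 to 7404374) on opposite strands. *col-7* ran from 0.16 to 20.9 TPM in replicate 1, with a median of 5.32, and from 30.3 to 288 TPM in replicate 2, with a median of 171. *col-62* ran from 0.23 to 37.7 TPM, with a median of 5.79, and from 43.4 to 392 TPM, with a median of 195. Their differences were -4.73 (SE 0.41, adjusted p = 0.00657) and -4.51 (SE 0.43, adjusted p = 0.00734). For both genes no replicate 1 library reached the lowest replicate 2 library, that of *sams-1(ww51)*.

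Among called genes whose mean reached 10 TPM, the other 2 of the 5 lowest were *K07E1.1*, which the sources used here do not describe, and *grl-21*, a member of the hedgehog-related ground-like family. *K07E1.1* (chromosome II, 4551083 to 4552177) was at 2.06 to 12.9 TPM in replicate 1 and 47.3 to 232 TPM in replicate 2, a difference of -4.27 (SE 0.29, adjusted p = 0.00493). *grl-21* (chromosome IV, 10737474 to 10738191) was at 0.73 to 5.48 TPM and 22.4 to 128 TPM, a difference of -4.16 (SE 0.21, adjusted p = 0.00462). In neither gene did the groups overlap.

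In the 5 highest called genes the strains also differed from each other, so that replicate 1 and replicate 2 overlapped. *lon-3* (chromosome V, 12197437 to 12198645, minus strand) encodes a cuticle collagen that sets body length. In replicate 1 it was at 94.6 TPM in the parent, 388 in *metr-1(ww52)*, 307 in *mthf-1(ww50)*, 533 in *mtrr-1(ww56)* and 516 in *sams-1(ww51)*. In replicate 2 it was at 34.3, 127, 98.8, 169 and 327 TPM. Each replicate 1 library exceeded its own partner, yet the groups overlapped, since parent replicate 1 lay below 4 of the replicate 2 libraries. The fitted difference was 1.40 (SE 0.16, adjusted p = 0.00989).

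*K10D3.4*, which is not described in the sources used here and shares 405 exon bases with *hpo-11* on the same strand, differed by 1.32 (SE 0.12, adjusted p = 0.00727). *cuti-1*, needed for cuticle and epithelial integrity, differed by 1.29 (SE 0.14, adjusted p = 0.00989), and *nhr-234*, a nuclear hormone receptor gene, by 1.22 (SE 0.12, adjusted p = 0.00734). *clec-3*, of the C-type lectin family, differed by 1.11 (SE 0.12, adjusted p = 0.00918). All 4 were higher in replicate 1 in every strain, with overlapping groups. *cuti-1*, for example, was at 14.6 TPM in the parent and 36.5 to 152.35 TPM in the mutants in replicate 1, against 5.09 and 18.4 to 55.02 TPM in replicate 2.

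**Figure D2:**
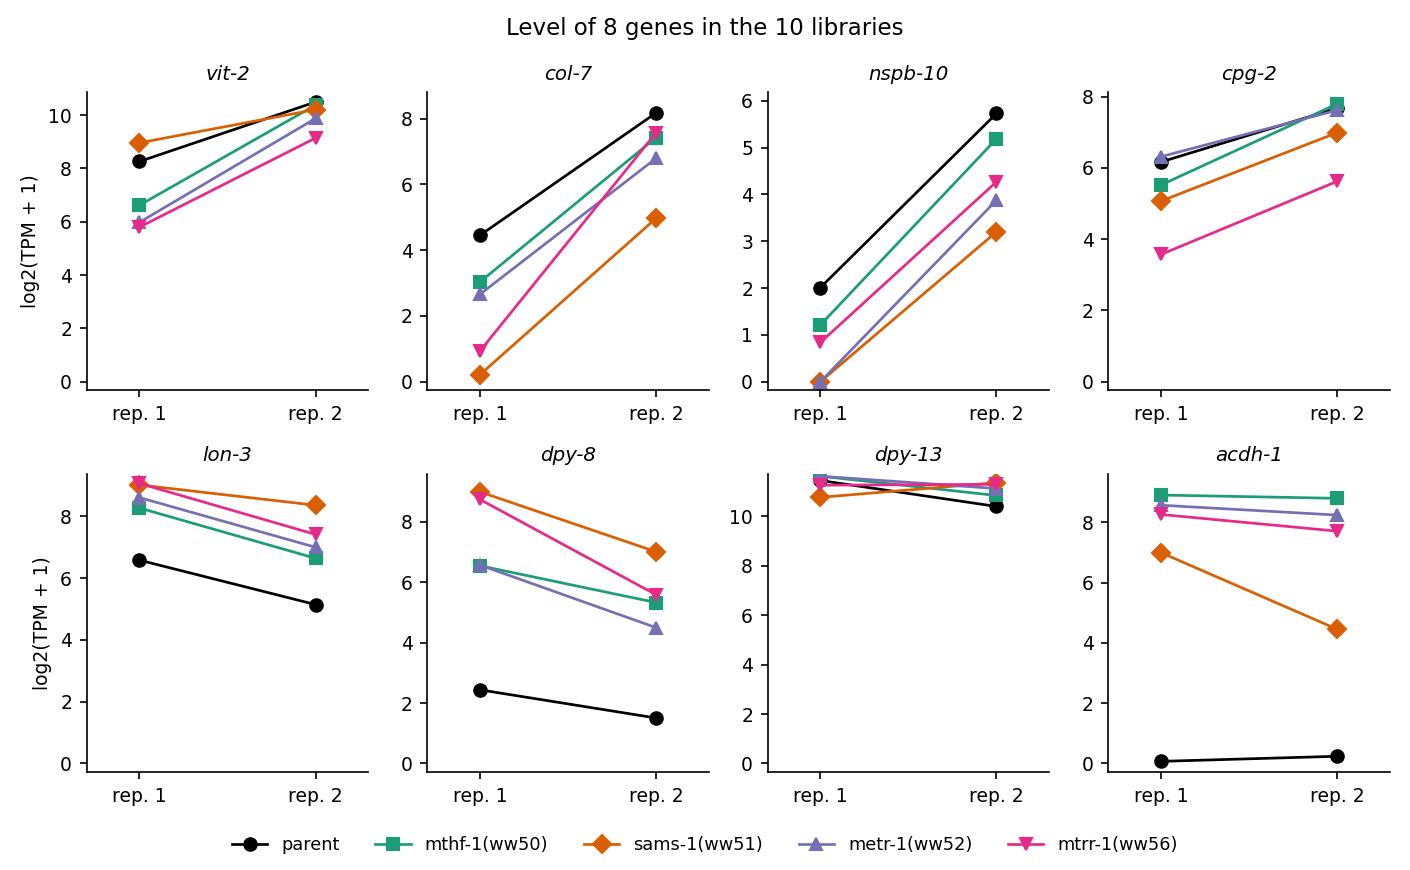
Level of 8 genes, as log2(TPM + 1) with each vertical axis starting at 0, in replicate 1 and replicate 2, with a line for each of the 5 strains. *vit-2*, *col-7*, *nspb-10* and *cpg-2* were lower and *lon-3* and *dpy-8* higher in replicate 1 in all 5 strains, *dpy-13* changed direction between strains, and *acdh-1* differed most in *sams-1(ww51)*, from 126 to 20.9 TPM.

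Among the genes of oocyte provisioning, all 6 vitellogenin genes were lower in replicate 1 in all 5 strains, with a median difference of -2.91. None was called, at adjusted p from 0.0171 to 0.0548. *vit-2*, a major yolk protein gene, was in replicate 1 at 305 TPM in the parent, 62.1 in *metr-1(ww52)*, 97.2 in *mthf-1(ww50)*, 54.6 in *mtrr-1(ww56)* and 496 in *sams-1(ww51)*. In replicate 2 it was at 1437, 937, 1324, 563 and 1180 TPM.

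The *vit-2* groups did not overlap, and neither did those of *vit-5* and *vit-6*. *vit-5* was at 0.86 to 22.9 TPM in replicate 1 and 96.6 to 406 TPM in replicate 2. *vit-6* was at 60.6 to 519 TPM and 639 to 1646 TPM. *vit-3*, *vit-4* and *vit-5* are near-identical copies between which reads can be divided wrongly, so the summed level is the safer measure. The 6 genes together held 147 to 1140 TPM in replicate 1 and 1548 to 4121 TPM in replicate 2, without overlap.

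Of 13 eggshell genes, 7 were called lower in replicate 1, 12 were lower in all 5 strains, and the median difference was -1.19. *cpg-2*, a chondroitin proteoglycan of the eggshell, was in replicate 1 at 70.7, 78.5, 44.8, 10.9 and 32.5 TPM in the parent, *metr-1(ww52)*, *mthf-1(ww50)*, *mtrr-1(ww56)* and *sams-1(ww51)*. In replicate 2 it was at 203, 195, 220.3, 48.1 and 126 TPM. Within strains replicate 2 held 2.49 to 4.92 times the level of replicate 1, and the groups overlapped only through *mtrr-1(ww56)* replicate 2. The difference was -1.81 (SE 0.15, adjusted p = 0.00657). The other called members were *cpg-1* and *cpg-3*, also proteoglycans, *egg-1*, a sperm receptor on the oocyte surface, *egg-4* and *egg-5*, which regulate the oocyte-to-embryo transition, and the chitin synthase gene *chs-1*. *perm-2*, of the permeability barrier, had a difference of -1.77 but missed the call at an adjusted p of 0.0368, with -0.81 in the parent and -3.24 in *mtrr-1(ww56)*.

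All 22 oocyte and maternal regulators were lower in replicate 1 in all 5 strains, and 10 were called. The median difference was -0.94. *pos-1*, whose zinc finger protein controls maternal mRNAs in the embryo, was at 6.72 to 40.2 TPM in replicate 1 and 19.9 to 112.8 TPM in replicate 2, with a difference of -1.47 (SE 0.09, adjusted p = 0.00493). *puf-5*, an RNA-binding repressor in oocytes, was at 1.69 to 15.9 TPM and 6.27 to 64.3 TPM, with a difference of -1.83 (SE 0.15, adjusted p = 0.00653). In both genes the lowest library of each number was that of *mtrr-1(ww56)*. The yolk receptor gene *rme-2* was also called, at -1.23.

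Of the 12 oocyte and maternal regulators that were not called, *gld-1*, a translational repressor of meiotic prophase, was at -0.58 and *cgh-1*, a germline RNA helicase, at -0.76, with adjusted p of 0.0119 and 0.0114. The 22 meiotic chromosome genes had a median of -0.22 and 20 cell division genes one of -0.20, with 0 called in either list. The 47 listed sperm genes, found under 48 identifiers, had a median of -0.53, 25 lower in all 5 strains and 0 called. Their median difference was -1.33 in *mtrr-1(ww56)* but -0.03 in *metr-1(ww52)*. The mean log2(TPM + 1) of the list was 5.95 to 7.09 in replicate 1 and 7.02 to 7.28 in replicate 2. The major sperm protein gene *msp-19* was at 368 to 1009 TPM in replicate 1 and 968 to 1223 TPM in replicate 2. The major sperm protein genes are close copies, so single members are uncertain.

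**Figure D3:**
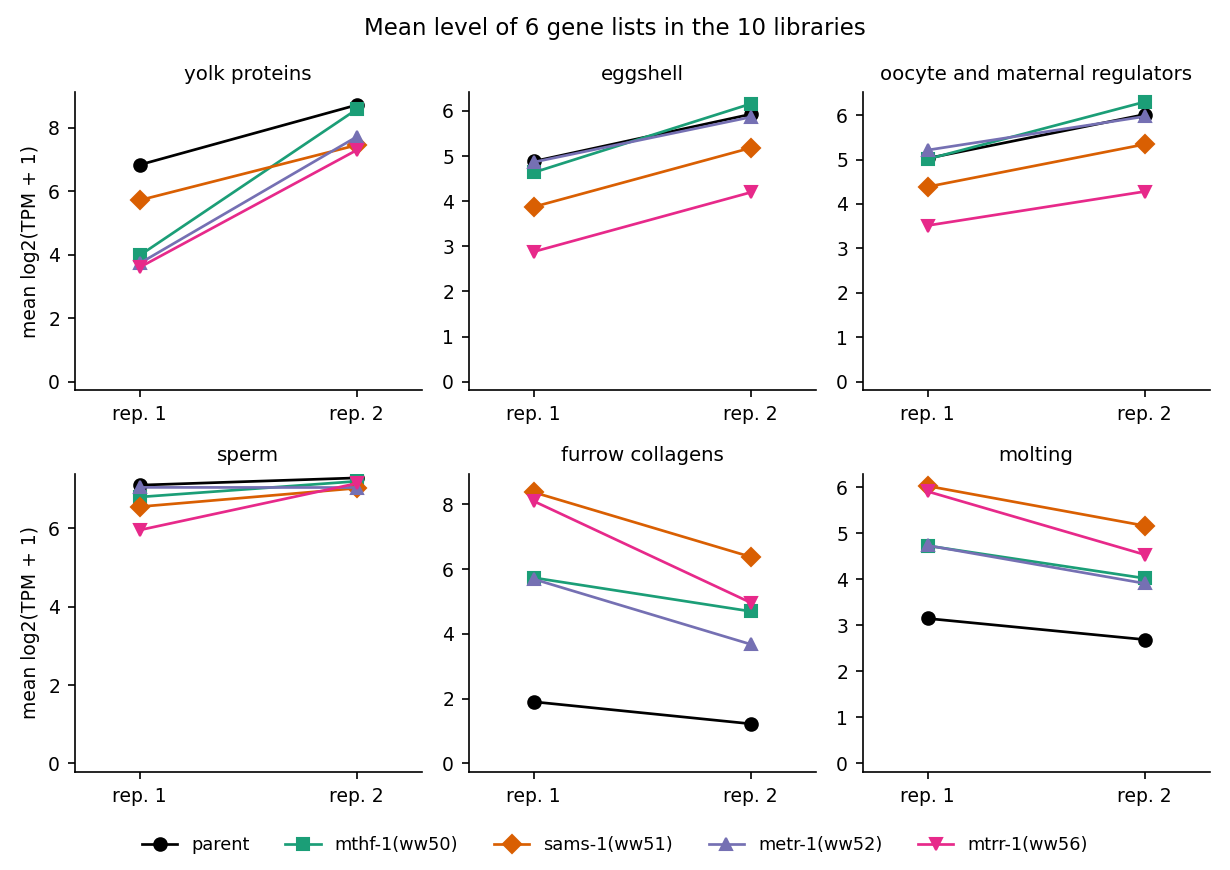
Mean log2(TPM + 1) of 6 gene lists, with each vertical axis starting at 0, in replicate 1 and replicate 2, with a line for each of the 5 strains. The yolk list ran from 3.61 to 6.83 in replicate 1 and from 7.30 to 8.72 in replicate 2, and the furrow collagen list was higher in replicate 1 in every strain.

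The furrow collagens moved the other way. All 6, *dpy-2*, *dpy-3*, *dpy-7*, *dpy-8*, *dpy-9* and *dpy-10*, which pattern the circular furrows of the cuticle, were higher in replicate 1 in all 5 strains, with differences from 1.65 to 1.91 and a median of 1.74. None was called at the 0.01 threshold, and all 6 had an adjusted p under 0.05, from 0.0248 to 0.0489. *dpy-8* was in replicate 1 at 4.42 TPM in the parent, 93.9 in *metr-1(ww52)*, 92.4 in *mthf-1(ww50)*, 426 in *mtrr-1(ww56)* and 508 in *sams-1(ww51)*. In replicate 2 it was at 1.84, 21.6, 39.2, 47.1 and 128 TPM. The parent lay far below every mutant in both replicates. The within-strain differences of *dpy-8* ran from 0.93 in the parent to 3.15 in *mtrr-1(ww56)*. The parent value comes out too small at its low level. In TPM, replicate 2 held 0.416 times the *dpy-8* level of replicate 1 in the parent and 0.424 times in *mthf-1(ww50)*.

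Of 12 other collagens with mutant body-shape phenotypes, 10 passed the filter, 6 were higher in replicate 1 in all 5 strains and 1, *lon-3*, was called. *sqt-1*, *sqt-2*, *sqt-3*, *rol-6* and *rol-8* had differences from 0.96 to 1.24. *dpy-4*, *dpy-5* and *dpy-13* did not follow the rest. *dpy-13* was at 2779 TPM in replicate 1 and 1342 in replicate 2 of the parent, 3133 and 1825 in *mthf-1(ww50)*, and 3136 and 2218 in *metr-1(ww52)*. It was at 1734 and 2615 TPM in *sams-1(ww51)* and at 2435 and 2497 TPM in *mtrr-1(ww56)*. Replicate 1 was thus higher in 3 strains and lower in 2. Against the other 4 strains, the *sams-1(ww51)* difference of *dpy-13* departed by -1.17, with an adjusted p of 0.851, so this change of direction was not called.

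*col-19*, a collagen whose transcription begins at adulthood, was in replicate 1 at 371, 32.6, 100.2, 11 and 1.00 TPM in the parent, *metr-1(ww52)*, *mthf-1(ww50)*, *mtrr-1(ww56)* and *sams-1(ww51)*. In replicate 2 it was at 1162, 356, 837, 629 and 159.7 TPM. The groups overlapped through parent replicate 1, and the difference of -4.03 was not called (adjusted p = 0.0265). *bli-1* and *bli-2*, strut collagens that were placed in the same list as *col-7*, *col-19* and *col-62*, went the opposite way. They were higher in replicate 1 in all 5 strains, at 1.39 and 1.27, with adjusted p of 0.0315 and 0.0170. The median of this list of 5, -4.03, is the value of *col-19* and does not describe the *bli* genes. Over all 117 tested *col* genes the median was -0.94, with 5 called lower and 0 higher, 45 lower in all 5 strains and 6 higher. Many collagen genes are close copies, so single members are uncertain.

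Molting genes were higher in replicate 1, with a median of 0.87 over 25 genes. None was called, 19 were higher in all 5 strains and 0 lower, and 11 were higher at an adjusted p under 0.05 with a fold over 1.5. *lpr-3*, a lipocalin of the apical extracellular matrix, had a difference of 1.72 (adjusted p = 0.0385). It was at 3.65 TPM in the parent and 83.6 to 727 TPM in the mutants in replicate 1, against 1.79 and 23.4 to 173 TPM in replicate 2. The zona pellucida genes *noah-1* and *noah-2* had differences of 1.62 and 1.56, and the protease gene *nas-37*, which helps shed the old cuticle, one of 1.19. *mlt-10* differed by 1.04 to 1.29 in 4 strains and by -0.22 in *sams-1(ww51)*, where it was at 263 TPM in replicate 1 and 306 in replicate 2. The separate list of 11 collagen processing genes had a median of -0.12. Within strains the list median was -0.39 in *mtrr-1(ww56)* but 0.08 to 0.14 in the other strains. *mlt-7*, a heme peroxidase that crosslinks the cuticle, was the only call in this list, lower in replicate 1 at -1.68 (SE 0.19, adjusted p = 0.00989). Its groups did not overlap, with 5.72 to 16.24 TPM in replicate 1 and 22.3 to 72.7 TPM in replicate 2.

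Heterochronic genes, which time larval development, were mixed. *lin-41*, a TRIM protein gene that also acts in oocytes, was called lower at -0.94 (SE 0.09, adjusted p = 0.00734). *lin-42*, the worm relative of *period*, was higher in replicate 1 in all 5 strains at 0.90 (adjusted p = 0.0156), from 0.39 in *sams-1(ww51)* to 1.22 in *mtrr-1(ww56)*. *lin-29*, a zinc finger gene of the larval-to-adult switch, and its cofactor *mab-10* were at 0.68 and 0.94, and the transcription factor gene *blmp-1* at 0.69. *lin-14* and *lin-28*, which act in early larvae, were at -0.03 and -0.13.

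Several families were picked out after their values were seen, and their counts support nothing by themselves. The *nspb* genes, a family of short nematode-specific peptides, had 6 of 11 called lower and a median of -3.24. *nspb-10* (chromosome II, 14587879 to 14588262) had the smallest adjusted p of all genes, 0.00147, at -3.64 (SE 0.13). In replicate 1 it was at 3.03, 0, 1.32, 0.79 and 0 TPM in the parent, *metr-1(ww52)*, *mthf-1(ww50)*, *mtrr-1(ww56)* and *sams-1(ww51)*, and in replicate 2 at 52.0, 13.7, 35.4, 18.3 and 8.19 TPM. The groups did not overlap. Members of the family are similar in sequence, so single members are uncertain.

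The *abu* genes, which encode glutamine- and asparagine-rich proteins of the pharyngeal cuticle, had 3 of 12 called lower and a median of -2.84. *abu-6* was at 0.16 to 25.2 TPM in replicate 1 and 32.7 to 151 TPM in replicate 2. All 5 *ule* genes, named for expression in the uterine lumen, were lower in all 5 strains, with a median of -2.04 and 1 call, *ule-5* at -3.54. Of 7 *lpr* lipocalin genes 6 were higher in all 5 strains, with a median of 1.68 and 0 calls. The other families picked out in this way had smaller medians. These were -0.17 over 18 *grl* genes, 0.13 over 9 *lys* genes, 0.10 over 95 *clec* genes and 0.62 over 9 *wrt* genes.

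In the tissue marker lists the median was 0.17 over 11 body wall muscle genes, 0.07 over 15 neuronal genes, 0.02 over 9 intestinal genes, -0.17 over 10 pharyngeal genes and 0.06 over 13 somatic gonad and vulva genes. Of the muscle genes 6 were higher in replicate 1 in all 5 strains and 0 lower, and of the somatic gonad and vulva genes 2 were higher and 4 lower. Over all genes tested, 11.4% were higher in all 5 strains and 18.6% lower. The muscle myosin light chain gene *mlc-2* was at 1411 to 1694 TPM in replicate 1 and 1265 to 1361 TPM in replicate 2, without overlap, yet its difference was only 0.21 (adjusted p = 0.0926). The single call in these 5 lists was *ifb-2*, an intestinal intermediate filament gene, at -0.75 (SE 0.08, adjusted p = 0.00918). The 78 cytosolic ribosomal protein genes had a median of 0.11, and 0.01 after quantile normalization. Of these, 29 were higher in replicate 1 in all 5 strains and 0 lower. Genes of the mitochondrial genome had a median of 0.01, and 16 lipid and fasting genes one of -0.07, which turned to 0.00 after quantile normalization. The stress response list had a median of -0.45, from -1.03 in *metr-1(ww52)* to 0.45 in *mtrr-1(ww56)*. None of these lists' medians was tested.

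**Figure D4:**
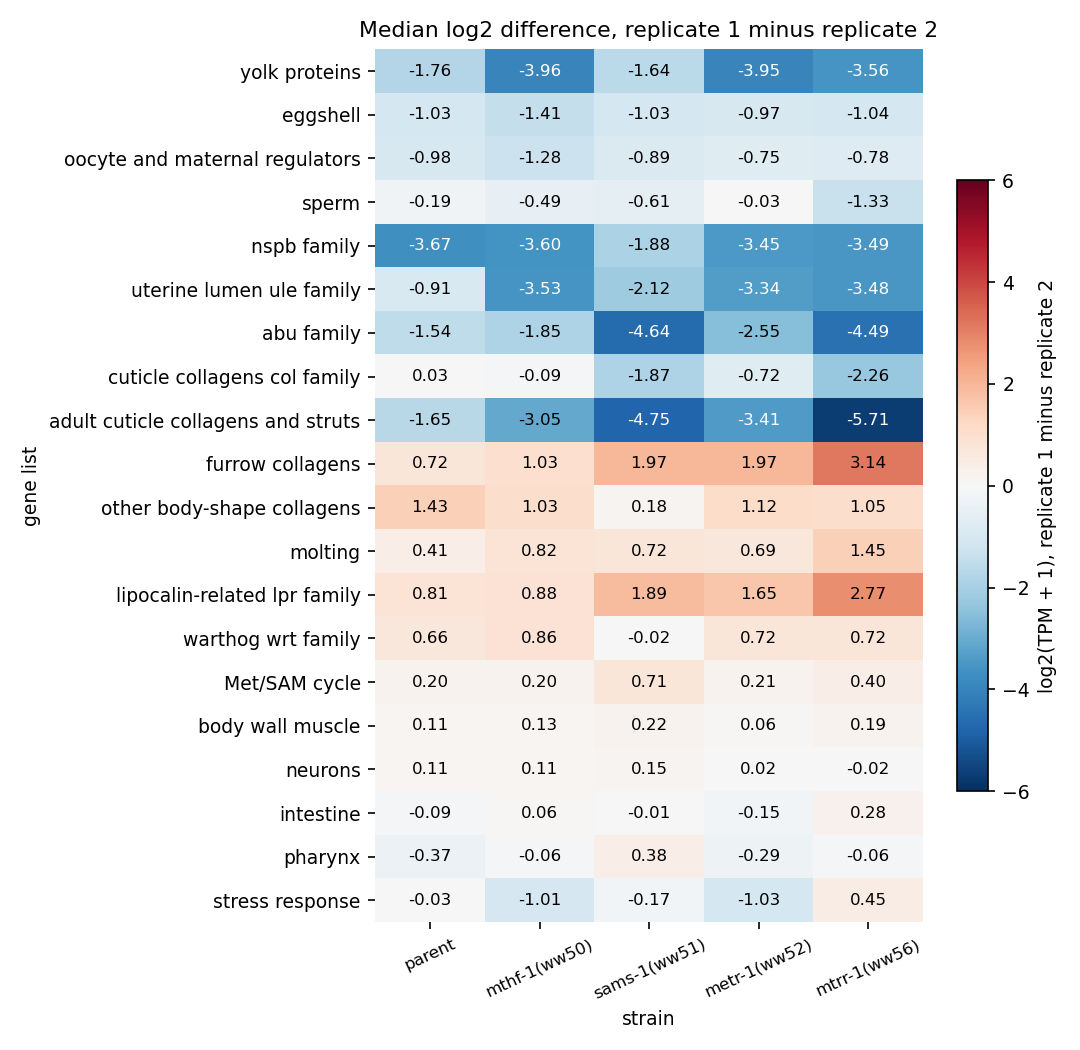
Median difference of 20 gene lists in each of the 5 strains, as log2(TPM + 1), replicate 1 minus replicate 2 (blue, lower in replicate 1; red, higher). Yolk differed most in *mthf-1(ww50)*, *metr-1(ww52)* and *mtrr-1(ww56)*, at -3.96, -3.95 and -3.56, while the *abu* genes differed most in *sams-1(ww51)*, at -4.64, and next in *mtrr-1(ww56)*, at -4.49.

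The within-strain differences were also described strain by strain. Across genes, the within-strain differences of strain pairs correlated at 0.166 (parent and *sams-1(ww51)*) to 0.736 (*sams-1(ww51)* and *mtrr-1(ww56)*), over genes that are not independent. The SD of the difference over genes was 0.55 in the parent, 0.57 in *metr-1(ww52)*, 0.62 in *mthf-1(ww50)*, 0.81 in *mtrr-1(ww56)* and 0.71 in *sams-1(ww51)*. The yolk list differed by -1.64 in *sams-1(ww51)* and -1.76 in the parent but by -3.56 to -3.96 in the other 3 strains. The furrow collagens differed by 3.14 in *mtrr-1(ww56)*, 1.97 in both *sams-1(ww51)* and *metr-1(ww52)*, 1.03 in *mthf-1(ww50)* and 0.72 in the parent. The parent value comes out too small at low levels, so its order against *mthf-1(ww50)* is not read. Summed furrow collagen was 17.07 TPM in replicate 1 and 8.15 in replicate 2 of the parent, and 328 and 154.1 TPM in *mthf-1(ww50)*.

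*sams-1(ww51)* replicate 1 combined the highest furrow collagen mean of the 10 libraries, 8.37, with a yolk mean of 5.72, which was above the 3.61 to 3.98 of the other mutant replicate 1 libraries. The interaction of replicate number with a single strain against the other 4 was tested for each strain, and limma called 0 genes in all 5 tests. At an unadjusted p under 0.05 the counts were 579 in the parent, 174 in *metr-1(ww52)*, 221 in *mthf-1(ww50)*, 1904 in *mtrr-1(ww56)* and 843 in *sams-1(ww51)*. With no effect, a fraction of 0.05 of the 14418 genes tested would pass, which is more than the counts in the parent, *metr-1(ww52)* and *mthf-1(ww50)*. Genes are not independent, so these counts are not read as strain differences. With an adjusted p under 0.05 the counts, in the same order of strains, were 4, 4, 10, 0 and 2. The leading genes of these tests were mostly listed at 0 in 9 of the 10 libraries, for example *R07D5.3*, at 31.2 TPM in *sams-1(ww51)* replicate 1 only, and *ZK180.15*, at 26.8 TPM in *mtrr-1(ww56)* replicate 1 only.

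**Figure D5:**
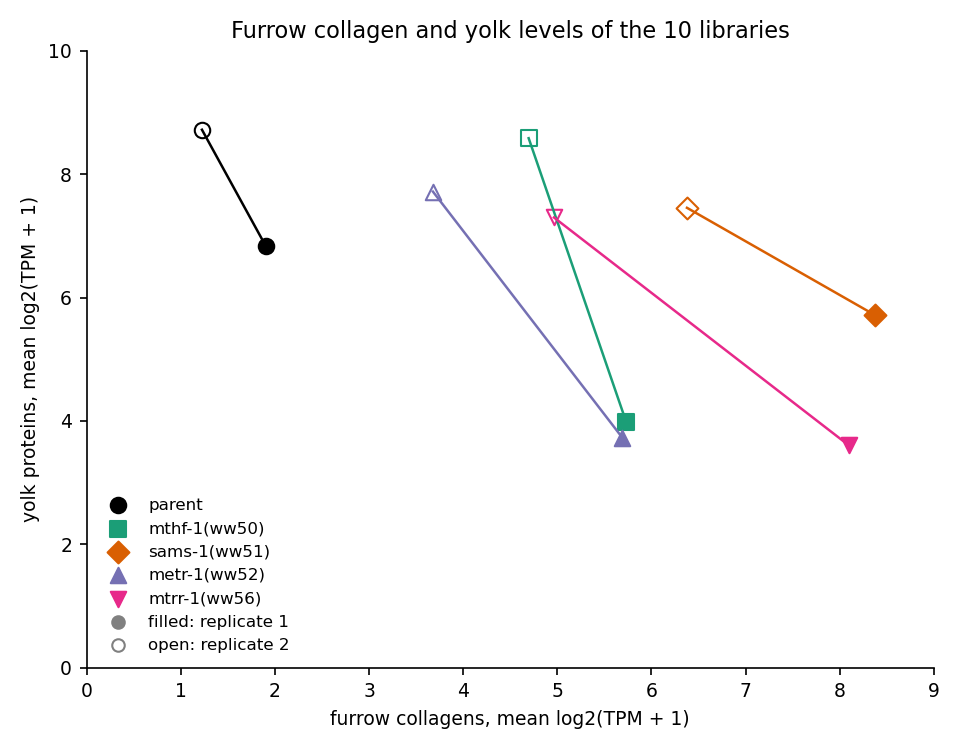
Mean log2(TPM + 1) of the 6 furrow collagens (horizontal) and the 6 yolk genes (vertical) in each library, with a line joining the 2 libraries of a strain. In every strain replicate 1 (filled) had more furrow collagen and less yolk than replicate 2 (open), and *sams-1(ww51)* replicate 1 had the highest furrow collagen mean, 8.37.

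The genes the study was made for differed less between replicates than between strains. The 6 Met/SAM cycle genes had a median replicate difference of 0.34, 3 were higher in replicate 1 in all 5 strains and 0 were called. The same 6 genes had a median of 2.41 in the mean of the 4 mutants minus the parent. *metr-1*, the methionine synthase gene, was at 24.5 and 22.8 TPM in the parent replicates and 131 to 242 TPM in the mutant libraries. *sams-1*, the SAM synthetase gene, had the largest replicate difference of the 6, 0.71 (adjusted p = 0.0784), with 80.2 and 33.7 TPM in the parent replicates and 230.2 to 751 TPM in the mutants. *mthf-1*, of the folate cycle, was at 0.47, *mel-32* at 0.35, *ahcy-1* at 0.19 and *mtrr-1* at 0.21.

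*acdh-1*, the first enzyme gene of the propionate shunt, was at 126 TPM in *sams-1(ww51)* replicate 1 and 20.9 TPM in replicate 2, a within-strain difference of 2.54. In the other 3 mutants the differences were 0.11 to 0.55, at 208 to 477 TPM. The methionine sulfoxide reductase gene *msra-1* was at 1413 and 476 TPM in the *sams-1(ww51)* replicates. *pmt-2*, of phosphatidylcholine synthesis, was higher in replicate 1 in all 5 strains, at 0.44 (adjusted p = 0.0408), and *pmp-5*, a transporter gene, was at 0.10 (adjusted p = 0.554).

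The mutant comparison was fitted both with and without the replicate number. With no block for the replicate number, the mean of the 4 mutants was called higher than the parent for 31 genes, 0.215% of genes tested, and lower for 4, 0.0277%. With the block, 405 were called higher, 2.81%, and 55 lower, 0.381%. All 35 genes called without the block were called with it, and the median residual SD of a gene was 0.22 without the number and 0.17 with it. Both comparisons use the same 10 libraries, so their values are given only side by side. All 20 genes called higher in replicate 1 lay above the parent in the mean of the mutants, and 18 were called higher there with the block. All 125 called lower in replicate 1 lay below the parent, and 14 were called lower there with the block. The share of all genes tested that lay on either side of the parent was not counted. The furrow collagens were at 1.74 between replicates and 4.34 between mutants and parent, and all 6 were called higher in the mutants with the block but 0 without it. The yolk genes were at -2.91 and -1.40, the eggshell genes at -1.19 and -0.76, and the molting genes at 0.87 and 1.66. With the block, 0 yolk genes, 1 eggshell gene (lower) and 12 molting genes (higher) were called in the mutants. Other lists had medians of opposite sign, with -0.22 and 0.03 for the meiotic chromosome genes, -0.20 and 0.07 for the cell division genes, and -0.07 and 0.72 for the lipid and fasting genes. A difference in stage and any other difference tied to the replicate number cannot be told apart here.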

How the data were processed

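The authors deposited TPM values per gene, estimated with RSEM after bowtie2 alignment of paired reads of 100 bp, with WormBase WS271 as reference. No strand setting is stated, so overlapping genes are uncertain. TPM keeps no depth. The samples are the 10 libraries, paired within strains, and 0 columns were left unassigned. limma 3.58.1 in R 4.3.3 was fitted on log2(TPM + 1), with a trend of variance on level, and p-values were adjusted by Benjamini-Hochberg over 14418 genes. The fit was checked on simulated data. Called genes passed an adjusted p under 0.01 and a fold over 1.5. Differences were taken within strains because each strain had 1 library of each replicate number. The within-strain differences of all strain pairs correlated at 0.166 or more across genes. That correlation comes from the values tested here and is no separate support for grouping libraries by number. The replicate numbers come from the labels, which name no shared culture. Figures used Python 3.11.15 and matplotlib 3.10.9.

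The members, gene lists and tests were chosen with earlier results of these data known. Genes named were the 5 highest and 5 lowest called genes whose mean reached 10 TPM, the 3 most abundant and up to 3 called members of each list, the Met/SAM cycle genes with *acdh-1*, *pmt-2*, *msra-1* and *pmp-5*, and the 3 leading genes of each interaction test. Members named outside this rule, and the *nspb*, *abu*, *ule*, *lpr*, *wrt*, *grl*, *lys* and *clec* families, were chosen after values were seen. Positions and exon overlaps are from the WBcel235 annotation, not compared base by base with WS271. Alternatives were other pseudocounts, filters, scalings, thresholds and models, and leaving out strains or libraries. No sequence was used here.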

Additional observations from a re-analysis of the deposited data

Results flagged for a closer look

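The 5 within-strain differences of 49 genes and 35 gene lists were examined for a strain that stood apart from the other 4. The 49 did not include every gene named here, for example not *R07D5.3*. Dixon's criterion was used, which flags about 1 in 20 independent sets by chance. The 84 items are not independent, since some of the genes are members of the lists, and some were chosen after values were seen. The criterion marked 9 of 84, and 6 of these were in *sams-1(ww51)*. There *lon-3* differed by 0.66 between replicates, against 1.44 to 1.65 in the other strains, and *mlt-10* by -0.22 against 1.04 to 1.29. *acdh-1* differed by 2.54 against -0.17 to 0.55, and *msra-1* by 1.57 against 0.33 to 0.63. The median of the *nspb* family was -1.88 against -3.67 to -3.45, and that of the warthog (*wrt*) family -0.0152 against 0.66 to 0.86. The *nspb* genes summed to only 1.36 TPM in replicate 1 and 41.03 in replicate 2 of *sams-1(ww51)*. In the other strains they summed to 3.55 to 17.99 and 150.5 to 331.1 TPM. Differences of such low genes come out too small, so the *nspb* mark is not read as a smaller change. In *mthf-1(ww50)* the eggshell list had a median of -1.41 against -1.04 to -0.97, and the lipid and fasting list 0.22 against -0.07 to -0.02. In *mtrr-1(ww56)* the collagen processing list had a median of -0.39 against 0.08 to 0.14. In the interaction tests, the adjusted p of *lon-3*, *mlt-10*, *acdh-1* and *msra-1* in *sams-1(ww51)* was 0.412, 0.379, 0.392 and 0.431, so limma called none of the 4.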

How the results depend on the processing

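Counts of genes called between replicates are given as higher and lower in replicate 1, where the fit reported gave 20 and 125. No filter on low values gave 0 and 1, the test against a 1.5-fold change 0 and 2, no strain in the model 0 and 0, and an adjusted p under 0.05 254 and 459. Without the parent, as in the 4 mutants alone, there were 0 and 10. Leaving out single strains gave 0 to 37 and 0 to 60. Omitting the mean-variance trend gave 10 higher, and quantile normalization gave 75 lower and 1570 lower in all 5 strains. In the interaction tests, 0 genes became 7, 9, 9, 6 and 4 without the trend in the parent, *metr-1(ww52)*, *mthf-1(ww50)*, *mtrr-1(ww56)* and *sams-1(ww51)*. They became 4, 4, 10 and 2 in all of these but *mtrr-1(ww56)* at an adjusted p under 0.05, and 1 in *mthf-1(ww50)* with a pseudocount of 0.1. Requiring a value above 0 in all 10 libraries, chosen after seeing the data, gave 23 and 119. The cause of these changes was not tested.

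For the mean of the 4 mutants minus the parent, 31 higher and 4 lower became 405 and 55 with the replicate block, and 277 and 60 with the block and median-ratio scaling. Leaving out single libraries gave 5 to 23 higher and 2 to 5 lower. For the replicate difference of 49 genes, 783 results under other settings were compared with the fit reported. Of these, 590 were the same, 174 weaker, 18 stronger and 1 reversed. Leaving out single strains weakened 13 to 19 of the 49. Of the genes named, *pmp-5* (0.0962) had values from -0.00557, without *sams-1(ww51)*, to 0.156 when single strains were left out.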

Other observations

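The X chromosome differed from the autosomes in the counts of genes that were higher, or lower, in replicate 1 in all 5 strains. Of 1937 tested genes on X, 20.2% were higher in replicate 1 in all 5 strains and 12.2% lower. Of 12453 autosomal genes, 10% were higher and 19.6% lower. After quantile normalization the shares were 26.7% and 8.16% on X and 15.3% and 11.3% on the autosomes, so the order of X and autosomes was kept while the autosomal balance turned. The calls did not repeat both sides of this. Of the 20 genes called higher in replicate 1, 7 were on X, and of the 125 called lower, 20 were. With 1937 of the 14418 genes tested on X, lower calls were not scarcer there. Genes are not independent, and no test was made.

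Some further called genes are given here, chosen after their values were seen. Higher in replicate 1, *txdc-12.2*, a thioredoxin-domain gene, differed by 1.10 at a mean of 289 TPM, *dnj-27*, of the endoplasmic reticulum, by 0.96, and *rab-6.2*, a Golgi GTPase gene, by 0.64. *idh-2*, the mitochondrial isocitrate dehydrogenase gene, differed by 0.65. Genes called lower included *skpo-3*, a peroxidase gene, at -2.98, the lectin gene *clec-87* at -1.82, and *lips-17*, a lipase-like gene, at -2.71.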
